A study of Rattus norvegicus with 13 samples.

Results

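The tubulin folding cofactors and the subunits of the neuronal tubulin polyglutamylase were examined as 9 transcripts, *Tbca*, *Tbcb*, *Tbcc*, *Tbcd*, *Tbce*, *Arl2*, *Tpgs1*, *Tpgs2* and *Ttll1*. They were chosen by name from the 14716 rows of the deposited table. All 9 names were found, each in 1 row, and all 9 exceeded the minimum for testing, a mean of 10 normalized counts over the pups. The RNA came from the ventricular zone (VZ), the progenitor layer lining the ventricle, which was laser captured from the posterior telencephalon of male Long Evans rats on postnatal day 2 (PN2). The 7 control pups were euthyroid offspring of dams that drank vehicle. The 6 PTU exposed pups were hypothyroid offspring of dams given propylthiouracil (PTU), a drug that blocks the making of thyroid hormone, in their water at 3 ppm during gestation and nursing. Each litter gave 1 pup, so the pup is the unit of replication, and exposure ran through the dam, so that direct actions of the drug and loss of hormone cannot be told apart.

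New α- and β-tubulin chains are handed from the prefoldin and chaperonin complexes to the tubulin folding cofactors, which finish their folding and join them into the dimer that builds microtubules. The cofactors TBCB and TBCE hold α-tubulin, TBCA and TBCD hold β-tubulin, and TBCC meets both in a shared complex that the small GTPase ARL2 also joins. Once microtubules are built, the polyglutamylase complex adds chains of glutamate to the tubulin tails. TTLL1 is its catalytic subunit, TPGS1 and TPGS2 are accessory subunits, and the modification is abundant on microtubules of neurons and of motile cilia.

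The transcripts rest on moderate depth. The reads behind the deposited values, as estimated from the spacing of low values, numbered 22.3 to 43.5 M per control pup and 28.4 to 44.4 M per PTU exposed pup (M, mega). Of the 117 values of the 9 transcripts, 114 were whole reads within 0.01. *Tbcb* had whole reads in 12 of 13 pups and *Tpgs2* in 11, and each other transcript in all 13. The values ran from 131 reads for *Arl2* to 3187 for *Tbcb*. Counting error alone was therefore 1.77% at best and 8.74% at worst, and covers neither amplification nor differences between pups.

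PTU exposed pups had higher levels of *Tbcb* and *Tpgs2*, by 1.45-fold and 1.38-fold, and neither difference passed adjustment over all rows. In limma on log2(normalized count + 1), 0 of 14606 rows had a Benjamini-Hochberg adjusted p of at most 0.05 (0% of rows), and 2383 rows had an unadjusted p under 0.05. An unadjusted p under 0.05 was found for 2 of the 9 transcripts, or 22.2%, against 16.3% of all rows. Both were higher in PTU exposed pups, a direction in which 8.11% of all rows had such a p, while 0 of the 9 had it in the lower direction, against 8.2% of rows. The study itself reported both as differentially expressed in these pups, with DESeq2 at an FDR of at most 0.05. The 0 rows above come from limma on log2 normalized counts and not from that count model. As the study's call rests on the same pups, the count of 2 is not independent evidence. With the deposited scaling, 5 of the 9 transcripts had a higher and 4 a lower mean log2 value in PTU exposed pups, but all 9 were higher once totals were equalised over pups, a scaling that moved the median of all rows from 0.00 to 0.20. The median log2 fold change of the 9 was 0.01, and after equalising it was 0.21, again close to that of all rows. With equalised totals *Tbcb* and *Tpgs2* kept an unadjusted p under 0.05, where 10.8% of all rows had one in the higher and 0.554% in the lower direction. In these totals the 3 highest rows took 32.4 to 60.1% of the estimated reads of control pups and 23.9 to 57.0% of those of PTU exposed pups. The groups were without overlap for 0 of the 9, against 0.596% of all rows.

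**Figure D1:**
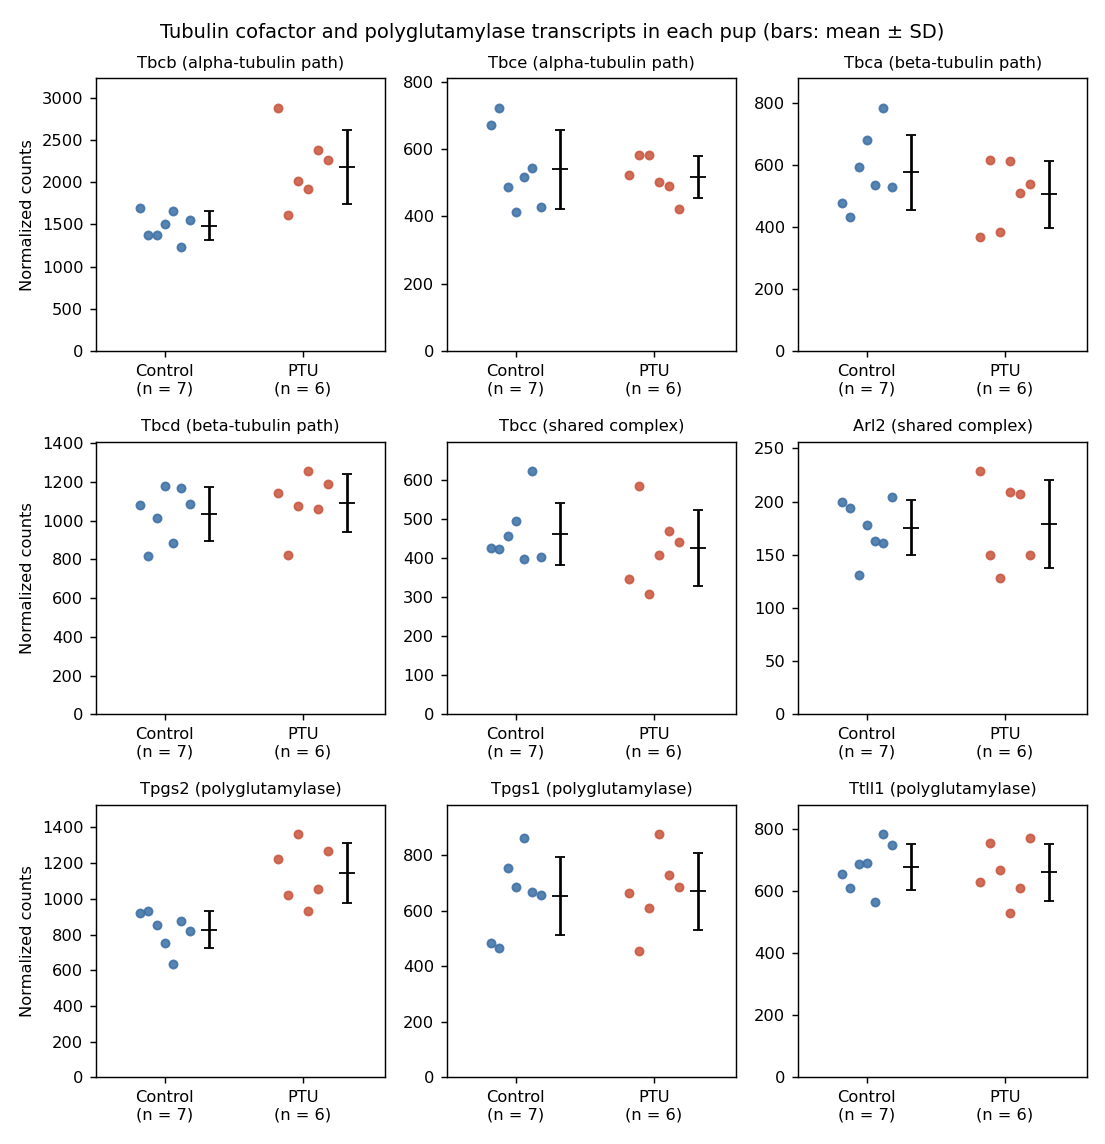
Normalized counts of the 9 transcripts (vertical axes, each from 0) in every pup of the Control (blue, n = 7) and PTU (red, n = 6) groups, with the mean ± SD beside the points. *Tbcb* and *Tpgs2* show 5 of 6 PTU exposed pups above every control, and the groups overlap for all 9.

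The α-tubulin cofactors are *Tbcb*, which binds α-tubulin first, and its partner *Tbce*. *Tbcb* (ENSRNOT00000028211) measured 1230 to 1697 normalized counts across the controls (median 1509), against 1612 to 2883 with PTU (median 2141). All but 1 of the PTU exposed pups lay above the highest control, and only PTU replicate 2 fell inside the control range. The means were 1485 ± 169 (SD, n = 7) and 2180 ± 439 (n = 6), a log2 fold change of 0.54 (SE 0.12, 95% interval 0.29 to 0.79, limma unadjusted p = 0.000288, adjusted p = 0.122). Of all tested rows, 0.192% had a smaller p. An exact permutation test over the 1716 regroupings of the pups, two-sided, gave p = 0.00175 for *Tbcb*, where the smallest p the design allows is 0.000583. Without PTU replicate 2, the pup inside the control range, the log2 fold change was 0.62 and the limma adjusted p was 0.0262. Leaving out that pup raises the difference by construction. Without PTU replicate 1, the highest pup, the log2 fold change was 0.45 and the limma adjusted p was 0.139. *Tbce*, which takes α-tubulin on towards the dimer, measured 412 to 723 across the controls (median 517), against 421 to 584 with PTU (median 513). The PTU exposed pups all fell inside the control range, whose upper end was set by control replicates 1 and 2. Its log2 fold change was −0.04 (SE 0.14, 95% interval −0.34 to 0.25, limma adjusted p = 0.902). The *Tbce* locus overlaps *B3galnt2* in RefSeq, which was at 0.01 (adjusted p = 0.989).

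*Tbcb* has a close neighbour that was measured in the same pups. In RefSeq (GRCr8), *Tbcb* and *Polr2i*, which encodes a subunit of RNA polymerase II, start on opposite strands with 26 bases between their starts. This stretch is shown because both transcripts begin at its ends, at chr1:94610950-94610975, read on the minus strand, which is the strand of *Tbcb*. Its GC content is 73.1% and it holds 4 CpG dinucleotides.
Tbcb-Polr2i gap: tccgcccgcctcgcttgcttccctcg
*Polr2i* measured 117 ± 42.4 normalized counts in control and 172 ± 83.7 in exposed pups, and its log2 fold change was 0.52 with a wide error (SE 0.32, limma adjusted p = 0.422). Its size is close to that of *Tbcb*, but the pups varied far more. Over the 13 pups, with values centred within groups, *Polr2i* and *Tbcb* had a Pearson r of 0.30 (permutation p = 0.367, 0.733 after adjustment over 2 neighbour pairs) and a Spearman rho of 0.08 (permutation p = 0.805, adjusted 0.805). Without the 2 pups farthest from the median of *Tbcb*, r was 0.16. This pair, and that of *Tbcc* with its neighbour *Bicral* (Pearson r of 0.09, permutation p = 0.775, adjusted 0.775), were chosen after the values were seen. *Bicral* measured 661 ± 127 normalized counts in control and 819 ± 128 in exposed pups, a log2 fold change of 0.32 (SE 0.14, limma adjusted p = 0.266), where that of *Tbcc* was −0.13.

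The β-tubulin cofactors differed by less than the pups of a group did. *Tbca*, which holds β-tubulin on its way to the dimer, measured 434 to 786 normalized counts across the controls (median 537), against 370 to 619 with PTU (median 525). The groups overlapped widely, and PTU replicates 1 and 3 lay below every control. Its log2 fold change was −0.19 (SE 0.16, 95% interval −0.53 to 0.14, limma adjusted p = 0.564), and 0.01 with equalised totals. *Tbcd*, which can both assemble and take apart the tubulin dimer, measured 817 to 1178 across the controls (median 1083), against 824 to 1258 with PTU (median 1109). PTU replicates 4 and 6 exceeded every control by small margins and the other pups were mixed. Its log2 fold change was 0.08 (SE 0.11, 95% interval −0.16 to 0.32, limma adjusted p = 0.760). In RefSeq the *Tbcd* locus overlaps *Znf750* and *B3gntl1*, which had log2 fold changes of −0.56 (adjusted p = 0.509) and 0.02 (adjusted p = 0.983). Since the sources do not state whether reads were counted by strand, reads from these loci may be shared.

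The transcripts of the shared complex also overlapped between groups. *Tbcc*, which triggers GTP hydrolysis by tubulin and so releases the finished dimer, measured 398 to 623 normalized counts across the controls (median 425), against 308 to 585 with PTU (median 424). Its extremes were the same pups as for *Tbca*, with control replicate 6 highest and PTU replicates 1 and 3 lowest. The log2 fold change of *Tbcc* was −0.13 (SE 0.15, 95% interval −0.45 to 0.19, limma adjusted p = 0.698), and 0.07 with equalised totals. *Arl2*, the GTPase that binds TBCD, measured 131 to 204 across the controls (median 178), against 128 to 229 with PTU (median 178). PTU exposed pups sat at both ends of this range, 3 above every control and 1 below. Its log2 fold change was 0.01 (SE 0.18, 95% interval −0.36 to 0.38, limma adjusted p = 0.988), the widest interval of the 9, at the fewest reads. Its locus overlaps an uncharacterized gene in RefSeq.

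Within the polyglutamylase complex, *Tpgs2* was higher in PTU exposed pups while *Tpgs1* and *Ttll1* gave values close to those of controls. *Tpgs2* (ENSRNOT00000082963) measured 636 to 934 normalized counts across the controls (median 854), against 934 to 1364 with PTU (median 1140). The groups met at a single point, where PTU replicate 4 lay just under control replicate 2, and the other PTU exposed pups exceeded every control. The means were 828 ± 105 (SD, n = 7) and 1145 ± 166 (n = 6), a log2 fold change of 0.47 (SE 0.11, 95% interval 0.23 to 0.70, limma unadjusted p = 0.000694, adjusted p = 0.122). The exact permutation test over 1716 regroupings, two-sided, gave p = 0.00117, and 0.541% of tested rows had a smaller limma p. The *Tpgs2* locus overlaps *Kiaa1328* in RefSeq, which is not analysed here. Reads from these loci may also be shared, and how far this bears on the values of *Tpgs2* was not tested.

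*Tpgs1*, the subunit that helps to place the complex in the cell, measured 465 to 863 normalized counts across the controls (median 667), against 456 to 878 with PTU (median 675). The ranges almost coincided, and control replicates 1 and 2 and PTU replicate 2 formed the low end. Its log2 fold change was 0.04 (SE 0.16, 95% interval −0.30 to 0.38, limma adjusted p = 0.926). *Ttll1*, the catalytic subunit, measured 567 to 785 across the controls (median 689), against 530 to 773 with PTU (median 649). All PTU exposed pups but replicate 4 lay inside the control range, and the log2 fold change was −0.04 (SE 0.11, 95% interval −0.27 to 0.19, limma adjusted p = 0.889). For the 7 transcripts other than *Tbcb* and *Tpgs2*, adjusted p-values ran from 0.564 to 0.988, but their intervals reached −0.53 at the low and 0.38 at the high end, so differences of that size lie within them.

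**Figure D2:**
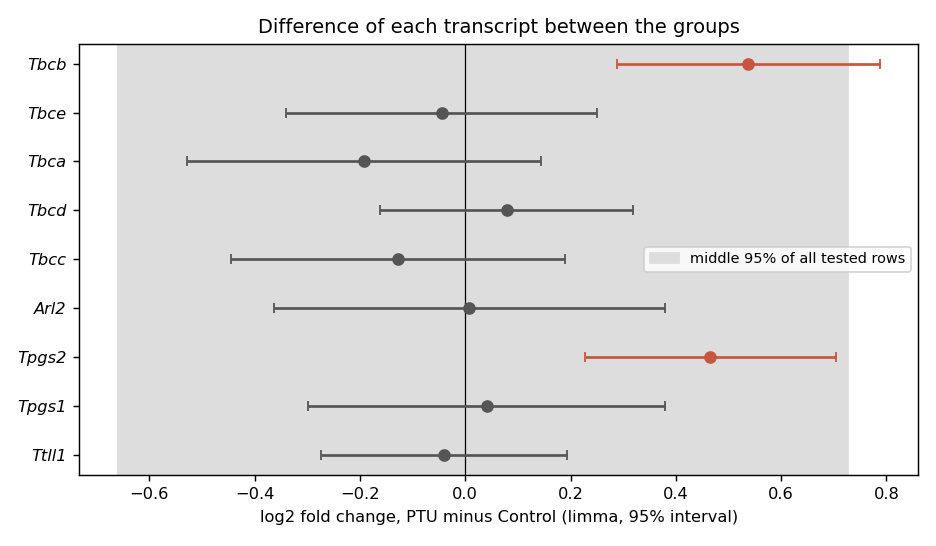
Log2 fold change of each transcript, PTU minus Control (horizontal axis), with its 95% interval from limma; red marks an unadjusted p under 0.05 and the grey band the middle 95% of all tested rows, from −0.66 to 0.73. *Tbcb* (0.54) and *Tpgs2* (0.47) have intervals above 0 but lie inside the band, and the other intervals include 0.

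Thyroid hormone receptors bind DNA through copies of the half-site AGGTCA, which was searched on both strands of the RefSeq promoters (GRCr8, from 250 bases before to 50 after the start, 300 bases in all). Promoters were in the table for 7 of the 9 genes, all but *Tbce* and *Ttll1*. The half-site was found in 1 of the 7, that of *Tpgs1*, and in 16.2% of the 33469 promoters of this length. The stretch around it is shown because it is the only match among these genes, at chr7:10686602-10686631, minus strand, with the reverse complement of the half-site in capitals, 236 bases before the start.
Tpgs1 promoter: gggggtggggggTGACCTtggaaaacacga
The transcript with the match, *Tpgs1*, had a log2 fold change of 0.04, and the promoters of *Tbcb* and *Tpgs2* held no match in these windows. A match of 6 letters is a description of the sequence and not a site shown to be bound. The GC content of the 7 promoters ran from 51.3 to 76.7%, where the median of all promoters was 51.7%.

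Partner transcripts were next set against each other within each pup, which removes the scaling of the pup. Of 5 ratios, that of *Tpgs2* to *Ttll1* differed between groups after adjustment. Its log2 value ran from 0.12 to 0.61 in control pups (mean 0.28 ± 0.20 SD) and from 0.44 to 1.03 in PTU exposed pups (0.79 ± 0.21), a difference of 0.51 (two-sided exact permutation p = 0.00291, and 0.0146 after adjustment over the 5 ratios). All 6 PTU exposed pups lay above the control mean, and only PTU replicate 2 lay inside the control range. The ratio of *Tpgs2* to *Tpgs1* was 0.36 ± 0.50 in control and 0.79 ± 0.41 in PTU exposed pups, a difference of 0.42 that did not pass (exact permutation p = 0.118, adjusted 0.196). The ratio of *Tbcb* to *Tbce* was 1.48 ± 0.35 in control and 2.06 ± 0.40 in PTU exposed pups, a difference of 0.58 at the edge of the threshold (exact permutation p = 0.0204, adjusted 0.0510), with 5 of 6 PTU exposed pups above the control mean. For *Tbca* to *Tbcd* the difference was −0.27 (exact permutation p = 0.162, adjusted 0.203). PTU replicate 2 lay above every control here, against the direction of the means. Without that pup the difference was −0.41 (adjusted 0.0274), a widening that follows from the pup removed. Over all runs with 1 pup left out, it ran from −0.41 to −0.17. For *Tbcd* to *Arl2* the difference was 0.07 (exact permutation p = 0.680, adjusted 0.680). The ratios of *Tbcb* and of *Tpgs2* use the transcripts with the smallest p of the 9 and so are not separate evidence for them.

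**Figure D3:**
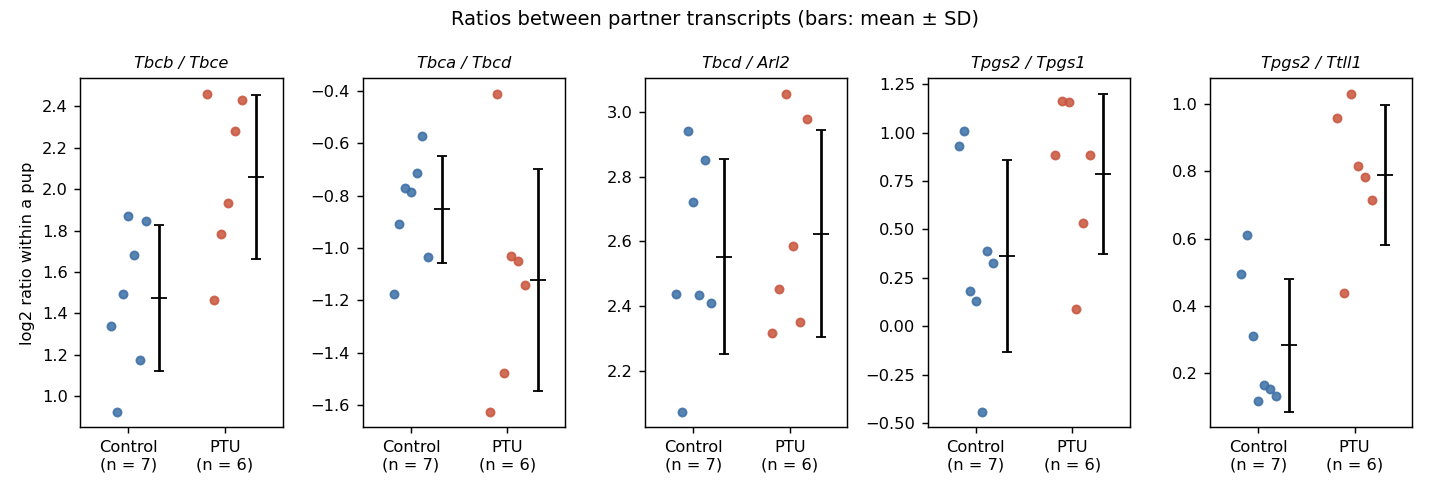
Log2 ratio between partner transcripts within each pup (vertical axes, which do not start at 0) in the Control (blue, n = 7) and PTU (red, n = 6) groups, with the mean ± SD. The ratio of *Tpgs2* to *Ttll1* has a mean of 0.28 in control and 0.79 in PTU exposed pups, and all 5 ratios overlap between groups.

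From pup to pup the 9 transcripts had correlations of both signs. Over the 36 pairs, with log2 values centred within groups, 17 correlations were positive and 19 negative, and 1 passed adjustment by Pearson r and 0 by Spearman rho (unadjusted p under 0.05 for 3 and 4 pairs). *Tbca* and *Tbcc*, of the β-tubulin path and the shared complex, had an r of 0.82 (permutation p = 0.00119, adjusted 0.0428) and a rho of 0.83 (permutation p = 0.00206, adjusted 0.0742), and r was 0.85 without the 2 pups farthest from the median of *Tbca*. *Tbca* and *Tbcb* had an r of −0.59 (permutation p = 0.0459, adjusted 0.434) and a rho of −0.65 (adjusted 0.348), with r = −0.60 without 2 pups. *Tbcb* and *Tpgs2*, the pair that was higher in PTU exposed pups, had an r of 0.09 within groups (permutation p = 0.800, adjusted 0.868) and a rho of 0.16 (adjusted 0.781), with r = −0.21 without 2 pups. *Tbcb* was highest in PTU replicate 1 and *Tpgs2* in PTU replicate 3. All points share the scaling of their pup.

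**Figure D4:**
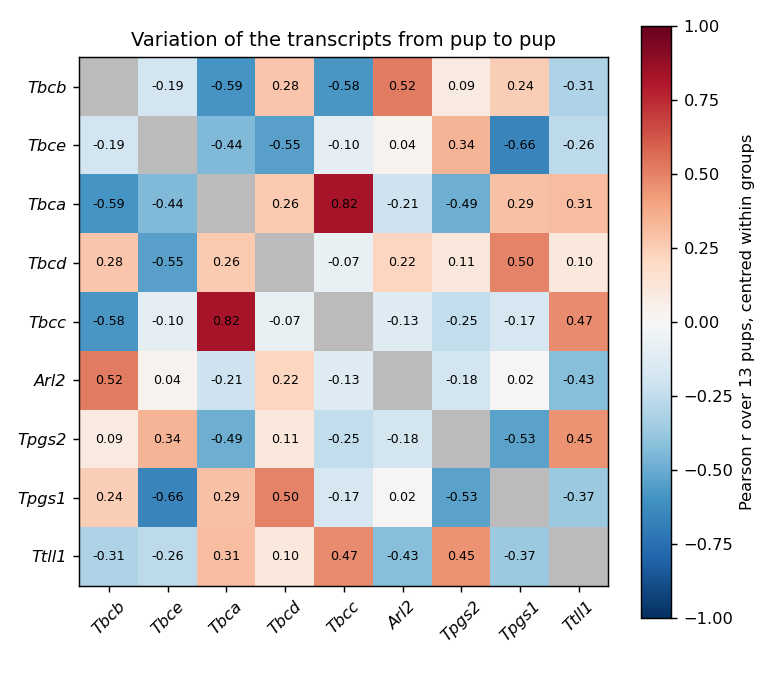
Pearson r between the 9 transcripts over the 13 pups, after centring log2 values within groups; both axes list the transcripts by path and the colour runs from −1 (blue) to 1 (red). *Tbca* and *Tbcc* have the highest value, 0.82, and *Tbce* and *Tpgs1* the lowest, −0.66.

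As a description without a test, the named rows most like each transcript over the 13 pups were listed by the same r. For *Tbcb* they were *Lpgat1* (0.903), *Plxna1* (0.896), a receptor for semaphorin guidance cues, and *Rab11fip5* (0.890). For *Tpgs2* they were *Prpf3* (0.868), a splicing factor, *Srgap2* (0.865), a regulator of membrane protrusions in neurons, and *Gabra3* (0.861), a GABA receptor subunit. For *Tbca* they were *Rbm42* (0.912), *Ptpn9* and *AABR07072676.2*, and for *Tbcc* *Psme1-ps1* (0.934), *RNase_MRP* and *Pask*. For *Tbcd* they were *Exoc3* (0.873), *Slc29a4* and *Dnajc5*, for *Tbce* *Gnptg* (0.935), *Ifitm10* and *Bbx*, and for *Arl2* *Epn2* (0.868), *Ssr2* and *Klf8*. For *Tpgs1* they were *Chmp1a* (0.958), *Cyhr1* and *Eef2*, and for *Ttll1* *Dnajb6* (0.911), *Grwd1* and *Zfp939*. The highest of very many correlations over so few pups is large by construction.

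Genes that act before and beside the cofactors were counted in the same limma fit, where 0 genes in any group had an adjusted p of at most 0.05. Of 13 prefoldin and chaperonin subunits tested, which pass new tubulin to the cofactors, 4 had an unadjusted p under 0.05, all higher in PTU exposed pups, a direction in which 8.11% of all rows had such a p. They were *Cct3* (log2 fold change 0.26 ± 0.07 SE), *Cct2* (0.22 ± 0.08), *Cct7* (0.14 ± 0.06) and *Pfdn5* (0.28 ± 0.11), and *Cct3* was without overlap between groups, as were 0.596% of all rows. *Cct7* lost this p with quantile normalization and with equalised totals. Among 10 cofactor relatives and regulators of ARL2, 0 had such a p in either direction, against 16.3% of all rows. With quantile normalization 1 did in the lower direction, *Unc119* (−0.38), against 8.66% of all rows. The median of the 10 was −0.01, or 0.19 with equalised totals. Of these 10 the most abundant, *Arl2bp*, which binds ARL2, had a log2 fold change of 0.02 ± 0.08.

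Of 4 other partners of the polyglutamylase, 1 had an unadjusted p under 0.05, against 16.3% of all rows, *Lrrc49*, a subunit of the same complex (0.20 ± 0.09). With equalised totals 0 of the 4 did, where 10.8% of all rows had one in the higher and 0.554% in the lower direction. Of 10 other glutamylases and glycylases, *Ttll7*, the main β-tubulin glutamylase of neurons, was at 0.38 ± 0.18 and *Ttll9* at −0.47 ± 0.21, both with an unadjusted p under 0.05, a share of 20% that is close to the 16.3% of all rows. With equalised totals *Ttll9* was at −0.27 and had no such p. Of 4 deglutamylases, 1 had an unadjusted p under 0.05 in the higher direction, against 8.11% of all rows. It was *Agtpbp1*, which trims glutamate chains (0.56 ± 0.19). The other 3 were below 0 without such a p, and only 1 stayed below 0 with equalised totals.

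Among the enzymes of tubulin tyrosination and acetylation, 4 of 7 tested had an unadjusted p under 0.05, all higher in PTU exposed pups, against 8.11% of all rows in that direction. They were *Ttl* (0.33 ± 0.13), which adds the last tyrosine of α-tubulin, *Vash1* (0.22 ± 0.10) and *Vash2* (0.34 ± 0.15), which remove it, and *Atat1* (0.33 ± 0.12), which acetylates α-tubulin. Of 14 tubulins, 5 had such a p in the higher direction (8.11% of all rows) and 0 in the lower. The 5 were the α-tubulin *Tuba1b* (0.32 ± 0.13), the β-tubulins *Tubb2b* (0.29 ± 0.10), *Tubb3* (0.33 ± 0.14) and *Tubb4a* (0.59 ± 0.20), and the γ-tubulin *Tubg2* (0.59 ± 0.27). With quantile normalization 4 had such a p, against 8.01% of all rows, as *Tubb3* and *Tubg2* lost it and *Tubb5* (0.38) gained it. *Tuba1b* was at 0.56 with quantile normalization and at 0.52 with equalised totals. The tubulins share long stretches of sequence, so reads may have been divided among them. The sum over the 14 tubulins ran from 199831 to 275748 normalized counts in control pups and from 245813 to 310913 in PTU exposed pups. Of 12 microtubule binding and severing proteins, 1 had an unadjusted p under 0.05, against 16.3% of all rows, *Mapt*, which encodes tau (0.68 ± 0.27). With quantile normalization 2 of the 12 did, both in the higher direction, against 8.01% of all rows. The study had picked 2 of these tubulins, *Tubb2b* and *Tubb4a*, from the same pups.

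**Figure D5:**
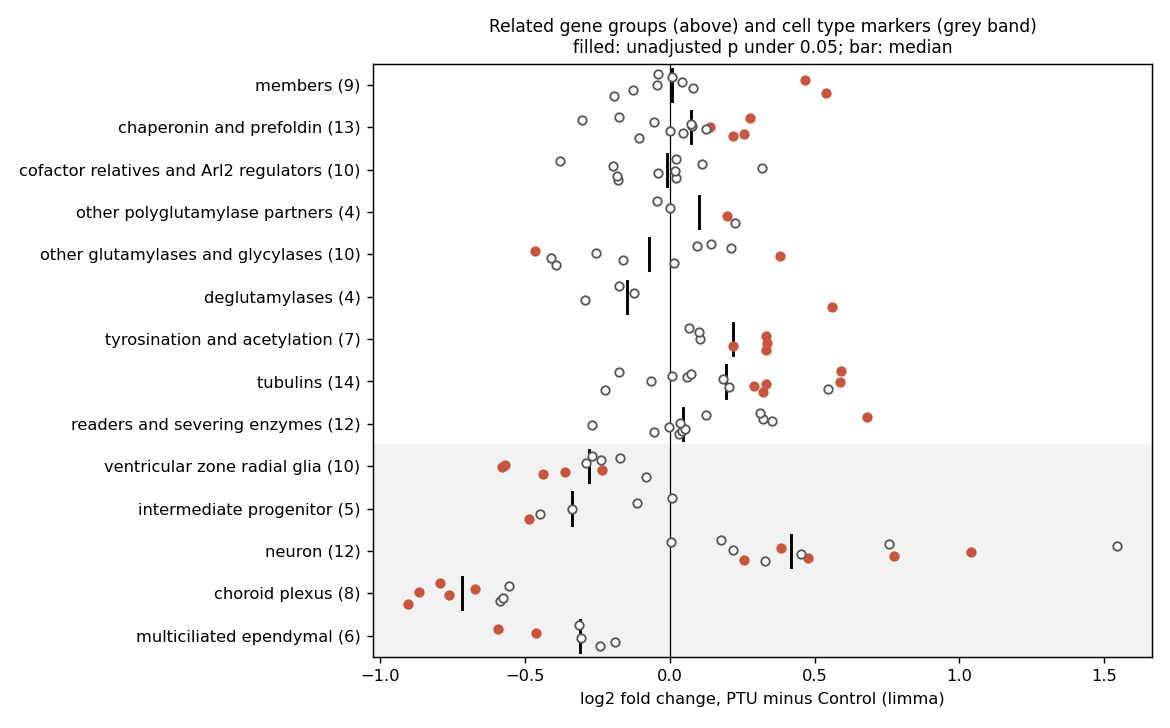
Log2 fold change, PTU minus Control (horizontal axis), of each gene in the related groups and, in the grey band, in the cell type marker lists, with the number tested in brackets; filled points have an unadjusted p under 0.05 and bars are medians. The 9 transcripts have a median of 0.01, neuron markers 0.42, VZ radial glia markers −0.28 and choroid plexus markers −0.72.

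The labelled tissue was checked with marker lists. All 10 markers of VZ radial glia were measured, and *Vim* (23548 in control pups) and *Slc1a3* (24684 in control pups) were well above the filter in both groups. The filter is low for rows so abundant, so this is a weak check of the tissue. Of 12 neuron markers, 5 had an unadjusted p under 0.05 in the higher direction (*Dcx*, *Stmn2*, *Snap25*, *Gap43* and *Elavl4*), against 8.11% of all rows, and 7 with equalised totals, against 10.8%. The other 7 had log2 fold changes above 0, down to 0.0049 for *Neurod6*, and the sum of the list ran from 49912 to 72746 normalized counts in control and from 62480 to 102849 in PTU exposed pups. Of 10 radial glia markers, 5 had such a p in the lower direction (*Pax6*, *Vim*, *Nes*, *Hes1* and *Hes5*), against 8.2% of all rows, with sums from 84208 to 114063 and from 70153 to 91548. All 10 had log2 fold changes below 0, and 8 did with equalised totals. With equalised totals 0 of the 10 had such a p, against 0.554% of all rows, and the median of the list was −0.08 where that of all rows was 0.20. These moved in the same comparison as *Tbcb* and *Tpgs2*, and their part in the differences of both was not tested. In RNA from captured tissue, fewer cells of a type and less RNA per cell cannot be told apart.

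Markers of cells next to the VZ were counted in the same way. The study describes choroid plexus as outside the captured tissue. Of 8 choroid plexus markers, 5 had an unadjusted p under 0.05 in the lower direction (*Ttr*, *Clic6*, *Kcne2*, *Aqp1* and *Otx2*), against 8.2% of all rows, and 2 with equalised totals (*Ttr* and *Clic6*), against 0.554%. All 8 had log2 fold changes below 0, also with equalised totals. The sum of the list ran from 49397 to 138726 normalized counts in control and from 23027 to 99226 in PTU exposed pups. No defining marker was at 0, and *Ttr*, which encodes the transthyretin made by choroid plexus, averaged 91587 in control and 51490 in PTU exposed pups. Both means were above those of *Vim* (23548 and 18505), although the study places choroid plexus outside the capture. The source of this RNA was not tested. Of 6 tested markers of multiciliated ependymal cells, whose cilia carry polyglutamylated tubulin, *Rsph1* and *Tekt1* had such a p in the lower direction, against 8.2% of all rows, and 0 of 6 with equalised totals, against 0.554%. All 6 had log2 fold changes below 0, and 5 did with equalised totals. The median of the list was −0.31 and, with equalised totals, −0.11, a move of about the size of that of all rows. Of 5 intermediate progenitor markers, *Eomes* had such a p in the lower direction (−0.49), against 8.2% of all rows, and 0 did with equalised totals (*Eomes* at −0.29), against 0.554%. Of 6 oligodendrocyte markers, *Cspg4* had such a p in the higher direction (0.36), against 8.11% of all rows, and 3 did in the higher direction with equalised totals, against 10.8% of all rows. Of 6 microglia markers, 4 were above 0 and *C1qa* alone had such a p in the lower direction (−0.50), against 8.2% of all rows. It lost this p with quantile normalization and with equalised totals (−0.30), where 8.66% and 0.554% of all rows had one. Of 6 endothelial markers 0 had such a p, against 16.3% of all rows, and 2 did in the higher direction with equalised totals, against 10.8%. The most abundant of them, *Kdr*, was at −0.05 ± 0.14. Of 5 erythrocyte genes, 0 were among the rows used here. The part of these cells in the values of the 9 transcripts was not tested.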

How the data were processed

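RNA-Seq of laser captured VZ from 7 control and 6 PTU exposed pups was used. Per the labels and methods, the authors trimmed reads with Trimmomatic, aligned them to mRatBN7.2 (rn7) with STAR 2.7.8a, estimated counts in Partek and scaled each pup by the median ratio size factor of DESeq2. The authors deposited this signal as normalized counts, which are not raw counts. The methods name a RefSeq annotation, whereas rows carry Ensembl identifiers. The deposited comparison (group means, p-value, FDR, ratio, log2 ratio and fold change) was not used. Columns of 0 other samples were found.

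Rows averaging at least 10 were compared on the log2(normalized count + 1) scale, on which changes of low rows come out too small, with limma 3.58.1 in R 4.3.3 (empirical Bayes with a variance trend, Benjamini-Hochberg adjustment over 14606 rows, threshold 0.05). Single ratios used exact permutation tests over 1716 regroupings of the pups, two-sided, and correlations 100000 permutations of values centred within groups. Read depth was taken from the spacing of low values, in units of 1 read. Between 90.0 and 91.6% of values from 20 to 150 were whole multiples of it within 0.1, too few to treat the table as raw counts. Scripts were tested on simulated data. The remaining work was done in Python 3.11.15 with scipy 1.17.1, pandas 2.3.3, matplotlib 3.10.9 and numpy 2.4.6.

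The 9 transcripts, the gene lists and the tests were chosen with earlier results of these data known. Named are all 9, the genes of each list with an unadjusted p under 0.05 (or the most abundant), and the 3 rows most alike. Groups and replicate numbers come from the labels, which give no batch, and equal numbers belong to different litters. Alternatives were pseudocounts of 0.1 and 10, other filters and scalings, summed rows, quality weights, no variance trend, a replicate block, each pup left out, and voom on estimated reads, the last chosen after seeing the data.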

Additional observations from a re-analysis of the deposited data

How the results depend on the processing

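In 24 alternatives *Tbcb* and *Tpgs2* kept an unadjusted limma p under 0.05, with the highest p at 0.00253 and 0.00935 with equalised totals, and 2 of the 9 transcripts had such a p in each. The log2 fold change of *Tbcb* ran from 0.45 to 0.74 and its adjusted p from 0.0262 to 0.400, at most 0.05 in 2 alternatives, without PTU replicate 2 and with pups weighted by quality (0.0413). That of *Tpgs2* ran from 0.40 to 0.67 and its adjusted p from 0.0526 to 0.400. The number of rows with an adjusted p of at most 0.05 was 40 with quality weights, 18 with the replicate block, 0 with voom on estimated reads, and from 0 to 179 with 1 pup left out, 179 without PTU replicate 2 and 7 without control replicate 6. Equalised totals left 81 rows lower and 1585 higher with an unadjusted p under 0.05, and turned the log2 fold changes of *Tbca* (0.0090), *Tbcc* (0.073), *Tbce* (0.16) and *Ttll1* (0.16). With quality weights *Tbce* was at 0.036.

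With 1 pup left out, the log2 fold change of *Tbce* ran from −0.10 to 0.030, of *Tbca* from −0.26 to −0.11, of *Tbcc* from −0.23 to −0.041 (lowest without PTU replicate 2, highest without PTU replicate 3), of *Tbcd* from 0.024 (without control replicate 2) to 0.16 (without PTU replicate 2), of *Tpgs1* from −0.042 to 0.15, of *Arl2* from −0.070 to 0.096 and of *Ttll1* from −0.087 to 0.021. The log2 ratio difference of *Tbcb* to *Tbce* ran from 0.49 to 0.70, passing without control replicate 4, control replicate 7 or PTU replicate 2, and was 0.58 with a pseudocount of 10 (adjusted 0.0495). That of *Tbca* to *Tbcd* ran from −0.41 to −0.17, that of *Tbcd* to *Arl2* from −0.016 to 0.14, and that of *Tpgs2* to *Ttll1* from 0.46 to 0.58. The last passed in the 15 alternatives run for ratios, which were both pseudocounts and each pup left out. The replicate block gave 0.55 for *Tbcb* (adjusted p = 0.0533) and 0.47 for *Tpgs2* (0.0601). Deviations of pups with the same number correlated at 0.17, 0.20, −0.07, 0.01, 0.11 and 0.16, not all over 0.1, and the labels name no litter or day that a number shares, so pairing was not shown. On the same 12 pups without the block, 0 rows had an adjusted p of at most 0.05. The cause of these changes was not tested.

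Depth limits *Arl2* most, with 131 to 253 reads a pup. The study reports some degradation of the RNA from captured VZ, and no RNA integrity value of single pups entered the fits. Reads of overlapping or similar transcripts were divided by the authors' estimate, and its error is not in these values.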
